A study of Mus musculus with 2 samples.

Results

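Macrophages of the mouse heart were followed through 10 genes: Cd68, Adgre1, C1qa, C1qb, C1qc, Lyz2, Mrc1, Lgals3, Spp1 and Gpnmb. They were chosen by gene symbol, with earlier results of these data known, as were the gene lists below. Counts of members or listed genes beside the share of all genes are therefore descriptions and not tests. All 10 members were found among the 19465 genes of the files, and all 10 had at least 20 UMIs over both sections. Visium CytAssist captures gene probes from a formalin-fixed, paraffin-embedded section on barcoded spots and counts them by unique molecular identifiers (UMIs). Each spot covers several cells, often of different types, so no value here belongs to macrophages alone. The control section came from an α-MHC-MerCreMer+/− heart. The TOP2B transgenic section came from an α-MHC-MerCreMer+/− hTOP2B LSL/− heart, in which a CAG-driven human TOP2B cDNA sits behind a loxP-flanked STOP cassette at Rosa26. Both groups carried the Cre driven by the α-MHC promoter, which acts in cardiomyocytes, and both received tamoxifen once at 80 mg/kg by intraperitoneal injection. The methods give this single-dose model at 6 weeks of age and describe same-age controls. The time from tamoxifen to collection of these hearts was not given in the sources used here.

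Macrophages are phagocytes that reside in the heart from before birth and are joined by cells derived from blood monocytes after injury. Cd68 is a lysosomal glycoprotein, Adgre1 encodes the F4/80 antigen, Lyz2 is a lysozyme, and C1qa, C1qb and C1qc encode the chains of the complement recognition protein C1q. Mrc1, the mannose receptor CD206, belongs to the genes known from resident macrophages, as do Lyve1 and Timd4. Lgals3 (galectin-3), Spp1 (osteopontin) and Gpnmb (a lysosomal transmembrane glycoprotein) are known from activated, lipid-handling macrophages in damaged tissue, although fibroblasts and other cells can also express them.

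The promoters of 2 C1q chains, which had like ratios, and of the activated members Lgals3 and Gpnmb are shown as the 250 bases before the RefSeq start (GRCm38.p6, a different build from that of the counts). Capitals mark the letters GAGGAA, the core of sites of the macrophage factor PU.1, and CATGTG, an E-box, on either strand. TGANTCA (AP-1) and CACGTG (E-box) were searched too and were absent from these 4.
C1qb: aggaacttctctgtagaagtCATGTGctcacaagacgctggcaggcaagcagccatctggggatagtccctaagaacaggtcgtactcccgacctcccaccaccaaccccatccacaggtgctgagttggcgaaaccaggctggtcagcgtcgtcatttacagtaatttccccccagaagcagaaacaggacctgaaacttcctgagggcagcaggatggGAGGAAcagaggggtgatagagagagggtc
C1qc: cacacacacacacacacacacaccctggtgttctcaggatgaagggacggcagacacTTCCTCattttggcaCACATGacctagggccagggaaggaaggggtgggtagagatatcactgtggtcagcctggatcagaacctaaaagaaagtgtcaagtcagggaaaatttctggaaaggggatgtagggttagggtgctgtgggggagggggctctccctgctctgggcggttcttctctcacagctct
Lgals3: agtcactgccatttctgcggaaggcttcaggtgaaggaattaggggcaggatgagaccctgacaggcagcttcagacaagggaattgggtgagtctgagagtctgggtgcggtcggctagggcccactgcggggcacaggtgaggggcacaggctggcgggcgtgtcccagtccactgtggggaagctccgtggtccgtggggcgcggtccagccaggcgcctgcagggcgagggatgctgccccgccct
Gpnmb: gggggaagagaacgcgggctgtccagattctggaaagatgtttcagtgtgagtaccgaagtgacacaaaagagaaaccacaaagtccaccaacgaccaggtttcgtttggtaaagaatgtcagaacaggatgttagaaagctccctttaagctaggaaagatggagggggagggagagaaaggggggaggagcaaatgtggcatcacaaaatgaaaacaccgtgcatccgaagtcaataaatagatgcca
They lie at chr4:136886201-136886450 (minus strand), chr4:136892915-136893164 (minus strand), chr14:47373610-47373859 (plus strand) and chr6:49036268-49036517 (plus strand). GAGGAA was in both C1q windows and in neither of the others, and 23.3% of 32851 promoters of that length held it. CATGTG was in both C1q windows, against 12.3%. The members not printed did not follow this split, since GAGGAA was also in the windows of Cd68 and Mrc1 and in 1 of 2 of Spp1, an activated member, and not in that of Lyz2, an identity member. CATGTG was also in the Mrc1 window and not in those of Cd68, Lyz2 and Spp1. Promoters were at hand for 8 of the 10 members, without Adgre1 and C1qa. A match describes these letters only, and its absence says nothing of the factor.

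There was 1 section per group, so no test between groups was possible and every interval covers counting error only, at the 95% level. Depth was 14376300 UMIs over 1256 spots (median 11336) in the control and 12953389 UMIs over 924 spots (median 14531) in the transgenic section. The sections shared 725 spot barcodes, which mark positions on the array and not cells. Cardiomyocyte markers were abundant in both, with Myh6, the α-myosin heavy chain, at 18470 CPM (UMIs per 1000000) in the control against 5734 CPM in the transgenic section. Mouse Top2b stood at 106 and 102 CPM, and the human transgene was not analysed here. Ratios below are log2 of transgenic CPM over control CPM, and their median was 0.20 over the 15236 genes with at least 20 UMIs. Red blood cell genes made up 0.215% of UMIs in the control and 2.04% in the transgenic section, a list of activated fibroblast genes (Postn, Comp, Thbs4 and others) 0.0329% and 0.158%, and edge spots 18.3% and 33.7% of spots. The part of these differences in the results below was not tested unless a value is given.

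All 3 activated members, the 3 C1q chains, Cd68 and Mrc1 had more CPM in the transgenic section, with intervals above 0. Adgre1 and Lyz2 had intervals that included 0. Thus 8 of 10 members lay above 0, against 39.4% of all genes tested, and none lay below 0, against 17%. At least 2-fold higher were 5 of 10 members, C1qa, Mrc1, Lgals3, Spp1 and Gpnmb, against 13.7% of all genes, and none was at least 2-fold lower, against 5.61%. With edgeR TMM factors in place of section totals the count was 3, Lgals3, Spp1 and Gpnmb, since C1qa and Mrc1 lay close to 2-fold. Spp1 and Gpnmb reached 20 UMIs only through the transgenic section. Among the 8 members with at least 20 UMIs in each section, a filter added after the data were seen, 3 were at least 2-fold higher (C1qa, Mrc1 and Lgals3), against 13.1% of the 11809 genes that pass it, and 6 had intervals above 0, against 46.9%. The median log2 ratio of the members was 0.93, which is 0.73 above that of all genes. In a tissue section a larger number of macrophages and more RNA per macrophage cannot be told apart.

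**Figure D1:**
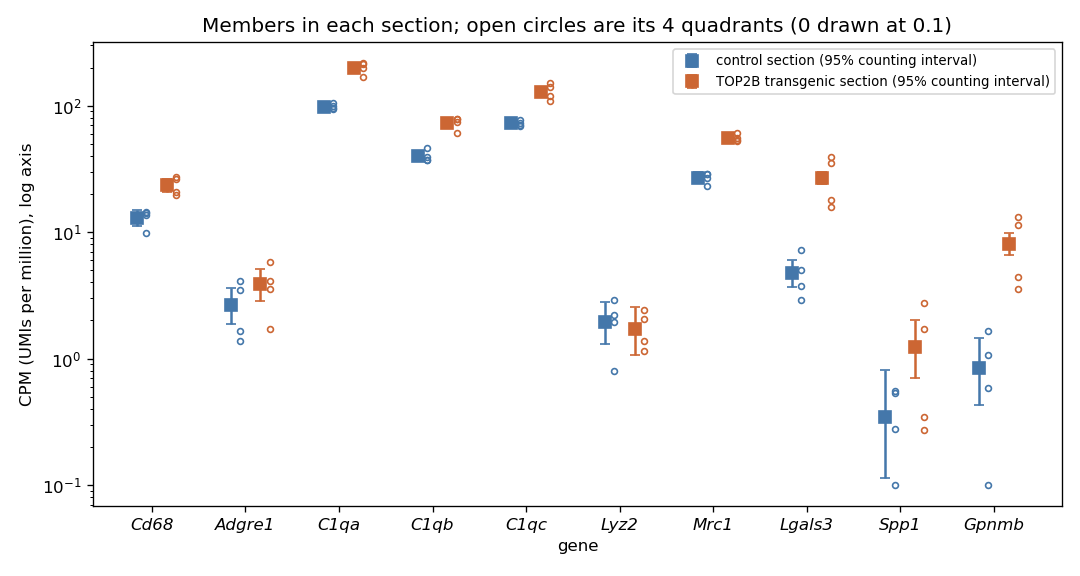
CPM of the 10 members (log axis) in the control and TOP2B transgenic sections; squares are whole sections with 95% counting intervals, open circles the 4 quadrants of each section. The quadrants separate for Cd68, the 3 C1q chains, Mrc1, Lgals3 and Gpnmb and overlap for Adgre1, Lyz2 and Spp1.

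The C1q chains, the most highly counted members, were all higher in the transgenic section. C1qa was at 98.4 CPM (interval 93.3 to 104) in the control and at 198 CPM (190 to 206) in the transgenic section. Its log2 ratio was 1.01 (0.91 to 1.10). C1qb was at 40.0 and 72.7 CPM, a log2 ratio of 0.86 (0.71 to 1.01). C1qc was at 72.3 and 129 CPM, a log2 ratio of 0.84 (0.72 to 0.95). For each chain the lowest quadrant of the transgenic section lay above the highest of the control, as for C1qa with 168 to 215 CPM against 93.7 to 104 CPM. The chains kept nearly the same proportions, with C1qa at 46.7% of C1q UMIs in the control and 49.5% in the transgenic section, C1qb at 19.0% and 18.2%, and C1qc at 34.3% and 32.3%. The 3 genes lie next to one another on chromosome 4 in the order C1qb, C1qc, C1qa of the GRCm38.p6 annotation. Of the nearby genes counted here, none directly adjacent to the cluster, only Zbtb40 had an interval below the ratios of all 3 chains. Zbtb40 had a log2 ratio of −0.26 (−0.61 to 0.10) from 155 and 117 UMIs. Tex46 had 0.03 (−1.23 to 1.28) from 13 and 12 UMIs. Wnt4 had 1.23 (0.01 to 2.56) from only 9 and 19 UMIs. The intervals of Tex46 and Wnt4 took in the ratios of all 3 chains.

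The remaining identity members differed among themselves. Cd68 had 187 UMIs in the control (11.2 to 15.0 CPM) and 304 UMIs in the transgenic section (20.9 to 26.3 CPM). Its log2 ratio was 0.85 (0.58 to 1.12), and its quadrants, at 9.85 to 14.4 CPM and 19.5 to 27.1 CPM, did not overlap. Adgre1 was at 2.64 and 3.86 CPM from 38 and 50 UMIs, with a log2 ratio of 0.55 (−0.09 to 1.19), and its quadrants overlapped. Lyz2 was at 1.95 and 1.70 CPM from 28 and 22 UMIs, with a log2 ratio of −0.20 (−1.07 to 0.66). The interval of Adgre1 included both 0 and the log2 ratio of Cd68, so it does not tell these apart for Adgre1. The log2 ratio of Cd68 lies above the interval of Lyz2. Lyz1, the adjacent near copy of Lyz2, was at 33 and 49 UMIs, with a log2 ratio of 0.72 (0.05 to 1.40), and reads of such similar genes may not be fully separable by probes.

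The activated members had the largest ratios, though the interval of Spp1 took in those of C1q. Lgals3 was at 4.73 CPM in the control from 68 UMIs and 26.7 CPM (24.0 to 29.7) in the transgenic section from 346. Its log2 ratio was 2.50 (2.12 to 2.89), and 1.57 among the cardiomyocyte-rich 50% of spots. Its quadrants were at 2.93 to 7.22 CPM in the control against 15.9 to 39.2 CPM in the transgenic section, so that even the lowest transgenic quadrant was above every control quadrant. Gpnmb was at 0.835 CPM (0.431 to 1.46) and 8.11 CPM (6.63 to 9.81), from 12 and 105 UMIs, with a log2 ratio of 3.28 (2.41 to 4.28). Its quadrants, at 0 to 1.67 CPM and 3.57 to 13.2 CPM, did not overlap either. Spp1 had only 5 and 16 UMIs, with a log2 ratio of 1.83 (0.31 to 3.63) and of 0.78 in the cardiomyocyte-rich spots, and its quadrants overlapped.

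The lowest of these counts were set beside 1178 olfactory and vomeronasal receptor genes, which heart tissue should barely express, a comparison chosen after the values were seen. The median receptor gene had 8 UMIs in the control and 6 in the transgenic section. In the control section 81.4% of receptor genes had at least as many UMIs as Spp1 and 19.9% at least as many as Gpnmb, so neither control level stood clear of these genes. In the transgenic section these shares were 2.72% for Spp1 and 0.170% for Gpnmb. The ratios of both genes therefore rest on a control level that cannot be told from background. Lgals3 in the control was above all but 0.340% of receptor genes.

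Over the quadrants, 7 of 10 members had every transgenic quadrant above every control quadrant, against 30.4% of all genes tested. Gpnmb is among these 7, although its control quadrants held only 2, 4, 0 and 6 UMIs. It passed the UMI filter only through the transgenic section, so its place in this count follows partly from the filter. The share of all genes was not taken with a filter on each section. The quadrants are parts of 1 section and not replicates.

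As a share of the 3755 and 6738 UMIs of all 10 members, a measure taken within each section, Lgals3, Spp1 and Gpnmb made up 2.26% (1.81% to 2.79%) in the control and 6.93% (6.34% to 7.56%) in the transgenic section. The quadrants ranged from 1.27% to 2.87% and from 4.56% to 8.92%. In the cardiomyocyte-rich spots the share was 2.07% in the control and 4.04% in the transgenic section. Without Lgals3, which supplied most of these UMIs, it was 0.461% and 1.89%. Mrc1 kept pace with C1q instead. It was at 27.0 CPM (24.4 to 29.8) in the control against 55.4 CPM (51.4 to 59.6) in the transgenic section. Its log2 ratio was 1.04 (0.86 to 1.22), and its share of the sum of Mrc1 and C1q UMIs was 11.4% (10.3% to 12.5%) in the control and 12.2%, inside that interval, in the transgenic section. Cd68 likewise made up 5.81% and 5.55% of the sum of Cd68 and C1q.

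**Figure D2:**
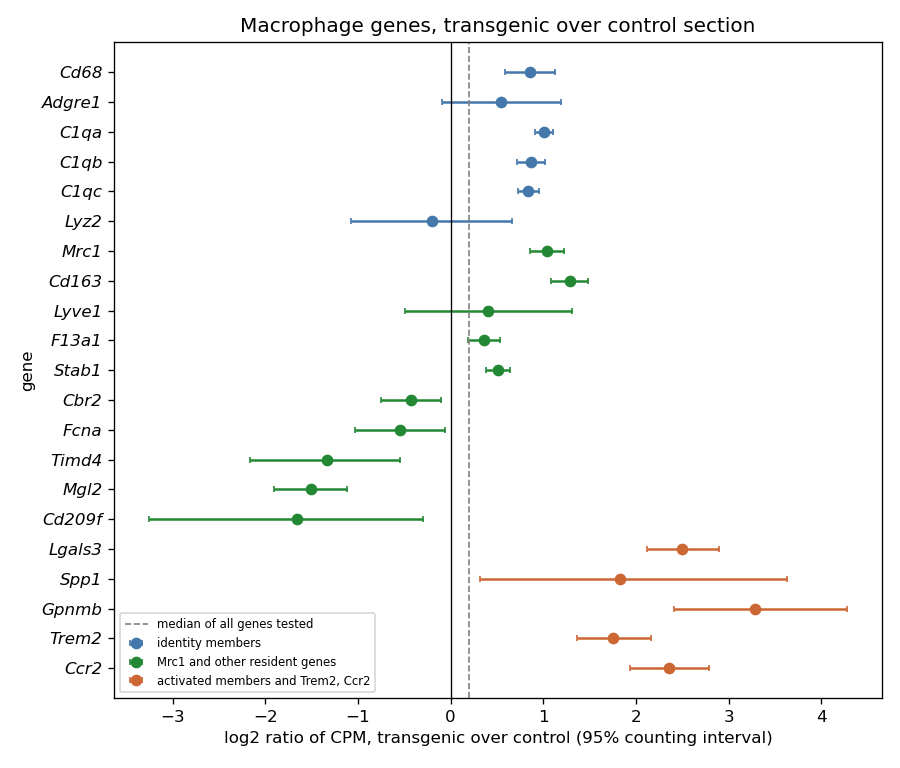
Log2 ratio of CPM, transgenic over control section, with 95% counting intervals for members and for a selection of related macrophage genes. The listed resident genes Gas6, at least 2-fold higher, and Vsig4 are not drawn. The dashed line is the median of all genes tested (0.20). Lgals3 and Gpnmb lie highest, Mrc1 and the C1q chains near 1, and Timd4, Mgl2 and Cd209f below 0.

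The other genes known from resident macrophages did not all move with Mrc1. Of 14 listed resident genes, Mrc1 included, 13 were in the files, and 12 had at least 20 UMIs. Of these 12, 3 were at least 2-fold higher (Mrc1, Cd163 and Gas6), against 13.7% of all genes. At least 2-fold lower were 3 (Timd4, Mgl2 and Cd209f), against 5.61%. The 12 had a median log2 ratio of 0.38. Cd163, a scavenger receptor for hemoglobin and the highest of the list, had a log2 ratio of 1.28 (1.09 to 1.48). Timd4, a phosphatidylserine receptor of long-lived resident macrophages, was at 3.69 and 1.47 CPM, with a log2 ratio of −1.33 (−2.17 to −0.55). Mgl2, a galactose-type lectin, had a log2 ratio of −1.50 (−1.90 to −1.12), and Cd209f, the lowest of the list, −1.66 (−3.26 to −0.30). Cd209f had only 21 and 6 UMIs, and 6 was also the transgenic median of the olfactory and vomeronasal receptor genes. Lyve1, a hyaluronan receptor, had 21 and 25 UMIs and a log2 ratio of 0.40 (−0.49 to 1.31), so no change could be detected. Timd4, Mgl2 and Lyve1 were singled out with their values known.

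Most other macrophage identity genes were higher too. Of 19 other identity genes with at least 20 UMIs, 18 had intervals above 0, against 39.4% of all genes, and 8 were at least 2-fold higher, against 13.7%, with a median of 0.96. Mpeg1, a pore-forming protein of phagocytes, was highest at 2.26, and Siglec1, a sialic acid receptor, lowest from 20 and 18 UMIs. Csf1r, the receptor for the macrophage growth factor CSF1, went from 39.7 to 85.5 CPM, a log2 ratio of 1.11 (0.96 to 1.25). Of 18 lipid-associated genes 7 were at least 2-fold higher and 1 lower, against 13.7% and 5.61% of all genes, with Ctsl, a lysosomal protease, highest at 2.36 and Atp6v0d2, a proton pump subunit, lowest from 20 and 9 UMIs. Trem2, a lipid-sensing receptor of that list, had a log2 ratio of 1.76 (1.36 to 2.16). The lipid-associated list summed to 10068 CPM in the control, against 261 CPM for the 10 members. Which cells its UMIs came from was not tested. Of 8 monocyte genes 6 were at least 2-fold higher, against the same 13.7%, including Ccr2, the chemokine receptor of recruited monocytes, at 2.35 (1.93 to 2.79). The highest of the monocyte list, Ace, is also known from endothelium, and Fn1, Thbs1 and Vcan of that list from fibroblasts. Lists of other activation genes differed from one another. Of 11 interleukin and M1-type genes with at least 20 UMIs, 2 were at least 2-fold higher and 2 lower, against 13.7% and 5.61%. Their median log2 ratio was 0.16, against 0.20 of all genes. Cd86 was highest at 1.37 and Nos2 lowest at −1.75. Of 8 M2-type genes, Mrc1 and Cd163 included, 5 were at least 2-fold higher and 1 lower, against 13.7% and 5.61% of all genes. Their median was 1.16. Ccl17 was highest at 2.15 and Retnla lowest at −1.14. Among markers of other blood cells, 0 of 9 T and NK cell genes, 0 of 6 B cell genes, 1 of 5 neutrophil genes, 1 of 4 mast cell genes and 2 of 7 dendritic cell genes were at least 2-fold higher, lists too short to be set apart from the 13.7% of all genes. The highest dendritic cell gene, Itgax, an integrin also known from macrophages, had a log2 ratio of 3.40. All 7 red blood cell genes were at least 2-fold higher, with a median log2 ratio of 3.25.

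The share of spots with at least 1 UMI was higher for the transgenic section as well for most members, Lyz2 excepted. Mrc1 was counted in 25.8% of control spots and 50.2% of transgenic spots, Lgals3 in 4.94% and 27.6%, and Gpnmb in 0.955% and 10.1%. With each spot cut at random to 8134 UMIs, and 140 shallower spots of the control and 78 of the transgenic section dropped, the shares were 18.9% and 34.9% for Mrc1, 3.55% and 18.0% for Lgals3, and 0.570% and 6.09% for Gpnmb. C1qa reached 62.4% and 85.1% of spots, or 53.1% and 75.7% after thinning. Adgre1 was in 2.95% and 5.19% of spots, or 2.19% and 2.94% after thinning. Lyz2 was in 2.23% and 2.38%, with overlapping intervals, or 1.47% and 1.36% after thinning. No spot had more than 7 UMIs of Lgals3 or 3 of Gpnmb.

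**Figure D3:**
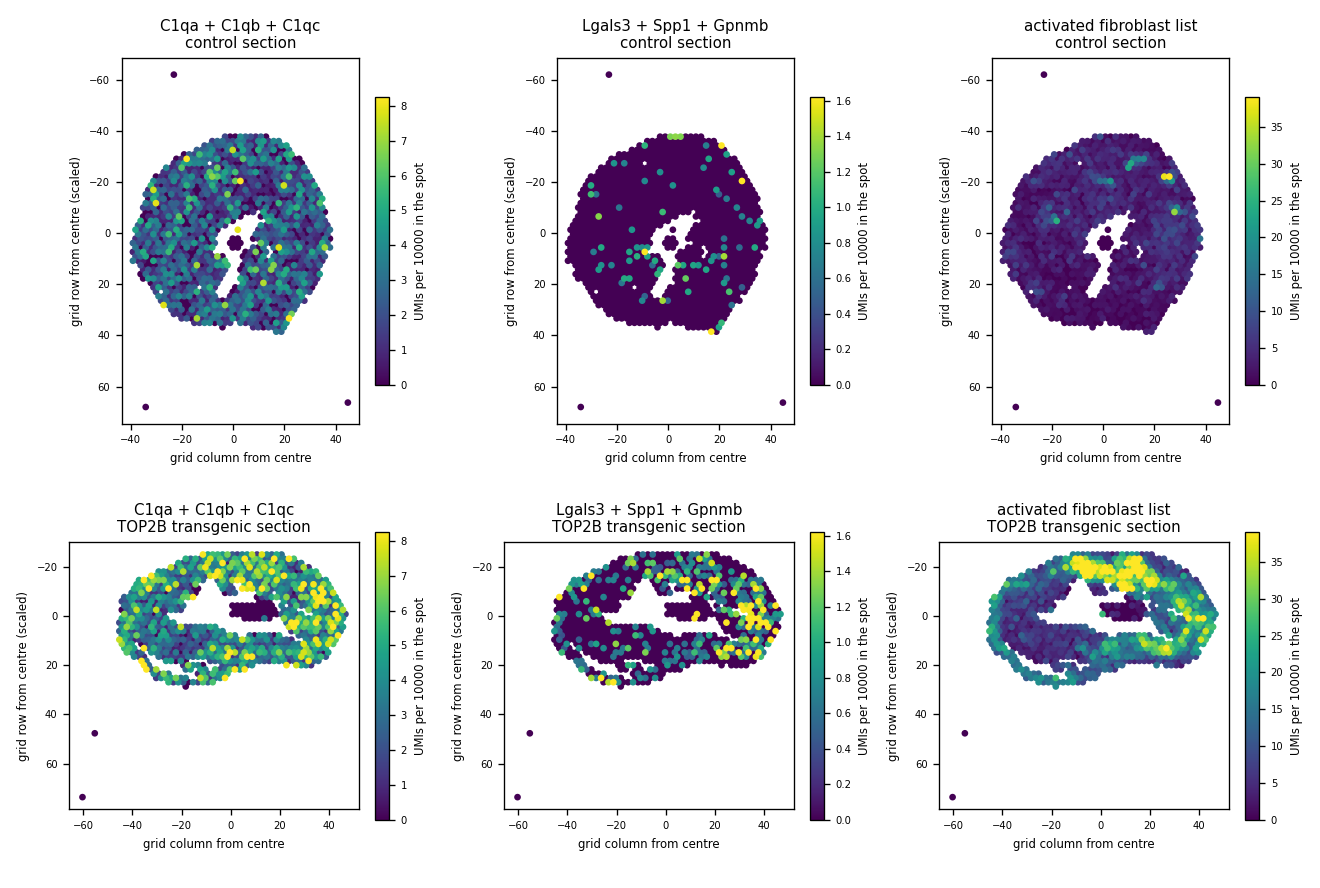
Maps of the control section (top) and the TOP2B transgenic section (bottom), each point 1 spot at its grid position from the center, colored by UMIs per 10000 of the summed C1q chains, the summed activated members and the activated fibroblast list; each column has 1 color scale, capped at the 98th percentile. In the transgenic section the activated members gather where the fibroblast list is high, and a patch of spots is low in all 3.

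Moran's I, the deposited measure of how alike neighboring spots are, was 0.019 for C1qa in the control and 0.205 in the transgenic section, 0.026 and 0.084 for Mrc1, 0.050 and 0.120 for Lgals3, and 0.001 and 0.052 for Gpnmb. Genes of like UMI counts were also higher in the transgenic section, with a median of 0.005 and 0.123 for those like C1qa and 0.002 and 0.036 for those like Mrc1. The medians were 0.0002 and 0.019 for genes like Lgals3, and −0.001 and 0.007 for genes like Gpnmb. Among the genes of each section C1qa ranked above 89.0% of ranked genes in the control and 94.4% in the transgenic section, and Gpnmb above 43.5% and 77.2%, while Mrc1 ranked above 93.5% and 86.0% and Lgals3 above 97.6% and 90.0%. The ranks of Mrc1 and Lgals3 were thus lower in the transgenic section. Gpnmb had only 12 UMIs in the control, fewer than the 20 asked of the ranked genes, so its control value and rank cannot be read.

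In the control Lgals3 was higher at the tissue edge than inside, at 8.44 and 4.13 CPM from 17 and 51 UMIs, a log2 ratio of 1.03 (0.15 to 1.85). Spp1 and Gpnmb had only 1 and 3 UMIs at the edge, with intervals that included 0. The sum of these 3, mostly Lgals3, was at 10.4 CPM in edge spots and 5.18 CPM in interior spots, a log2 ratio of 1.01 (0.22 to 1.74) from 21 and 64 UMIs. The transgenic section had 35.7 and 36.2 CPM, with a log2 ratio of −0.02 (−0.32 to 0.28). Mrc1 had intervals that included 0 in both, with log2 ratios of 0.19 (−0.22 to 0.59) and 0.02 (−0.22 to 0.26). The higher control edge was not particular to activated members. Among identity members Lyz2 had a control log2 ratio of 1.54 (0.21 to 2.75) from 9 and 19 UMIs. Cd68 had 0.74 (0.20 to 1.25) and C1qa 0.26 (0.05 to 0.47), while the intervals of Adgre1, C1qb and C1qc included 0. The summed identity members had 0.18 (0.04 to 0.31) in the control and 0.02 (−0.06 to 0.11) in the transgenic section. Other cell types moved with the control edge, where epicardial genes were 4.33-fold, red blood cell genes 3.31-fold and fibroblast genes 1.47-fold the interior CPM. In the transgenic section epicardial genes were at 82.4 and 27.5 CPM, red blood cell genes were 2.12-fold and fibroblast genes 1.20-fold. Their part in the edge values was not tested, and whether the edge pattern differed between hearts cannot be tested with 1 section each.

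Spots of each section with at least 1000 UMIs were split into quartiles by their share of activated fibroblast UMIs, a split chosen after the data were seen. In the transgenic section Gpnmb was at 2.53 CPM in the lowest quartile and 14.7 CPM in the highest, a 5.81-fold difference (2.63 to 15.2) from 7 and 52 UMIs. Lgals3 was at 10.8 and 43.4 CPM, a 4.01-fold difference (2.70 to 6.15). The summed C1q chains were at 255 and 483 CPM, 1.90-fold (1.74 to 2.07), and Mrc1 at 37.9 and 62.0 CPM, 1.64-fold (1.29 to 2.09). The intervals of Lgals3 and Gpnmb thus lay above that of C1q. At least 2-fold higher in the highest quartile were C1qc, Lgals3 and Gpnmb, 3 of the 8 members with at least 20 UMIs in these quartiles, against 9.44% of all genes. Gpnmb reached 20 UMIs there only through the highest quartile, so its place in this count follows partly from the filter. In the control, Lgals3 was at 6.23 and 3.56 CPM, a 0.572-fold difference (0.263 to 1.20), and C1q at 205 and 217 CPM. None of the 6 control members with at least 20 UMIs in these quartiles was 2-fold higher, against 0.984% of all genes. The control depended on the list that ordered the spots. The activated list also holds Acta2, a gene of the smooth muscle list too. Its 10 genes had a median log2 ratio of 5.26 and their sum only 2.265, so its make-up differed between the sections. The control quartiles may thus order spots by other cells than the transgenic quartiles, and the part of Acta2 was not tested. Ordered by a list of general fibroblast genes instead, control Lgals3 was at 2.73 CPM in the lowest quartile and 8.25 CPM in the highest, a 3.02-fold difference (log2 1.60, 0.50 to 2.81) from 10 and 27 UMIs, while C1q was 1.27-fold higher (1.15 to 1.41). Edge spots made up 8.31% of that lowest control quartile and 37.5% of the highest. By the same list the transgenic section had 4.54-fold (3.02 to 7.07) for Lgals3, 5.81-fold for Gpnmb and 2.13-fold for C1q. A higher Lgals3 level where fibroblast genes are high was thus seen in both sections with the general list, and with the activated list in the transgenic section.

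**Figure D4:**
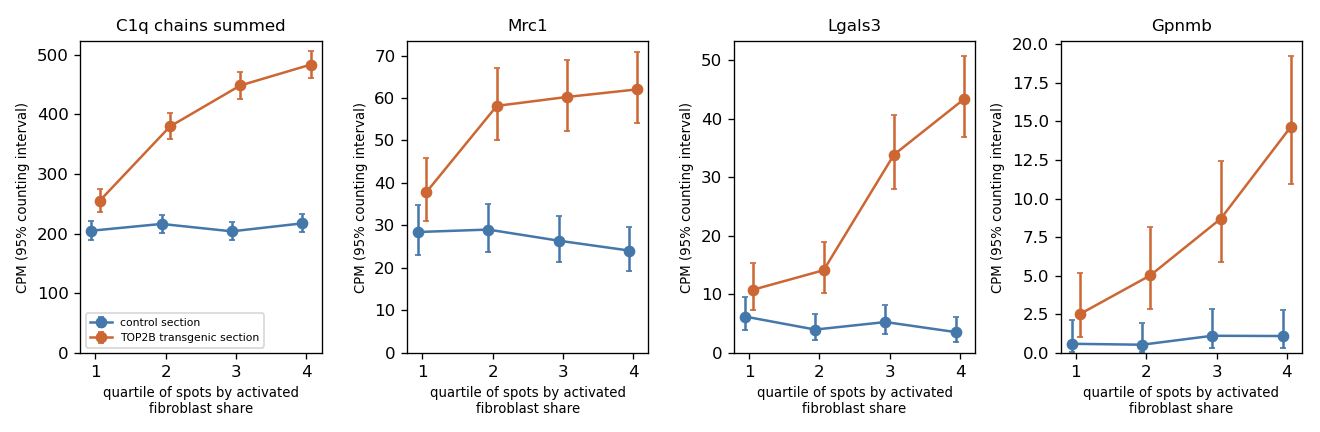
CPM (95% counting intervals) of the summed C1q chains, Mrc1, Lgals3 and Gpnmb in quartiles of spots ordered by their share of activated fibroblast UMIs, in the control and TOP2B transgenic sections. In the transgenic section Lgals3 goes from 10.8 to 43.4 CPM and C1q from 255 to 483 CPM. In the control C1q goes from 205 to 217 CPM, Lgals3 from 6.23 to 3.56 CPM, and Gpnmb has too few UMIs (2 and 4) to be read.

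The composition of the member UMIs changed along the same order. In the transgenic section the activated members made up 4.17% (2.97% to 5.68%) of member UMIs in the lowest quartile, 4.16% in the next, 7.49% in the third and 9.41% (8.25% to 10.7%) in the highest. In the control the values were 2.88%, 1.71%, 2.59% and 1.96%, with overlapping intervals. The highest transgenic quartile held 20.4% edge spots and the lowest 34.2%, and their median depths were 15760 and 13066 UMIs per spot. In the 50% of the transgenic spots poorest in red blood cell genes, the highest quartile over the lowest was 4.12-fold (2.45 to 7.28) for Lgals3, 5.30-fold (2.03 to 17.5) for Gpnmb and 1.60-fold (1.43 to 1.79) for C1q. Among interior spots these were 3.93-fold, 4.94-fold and 2.06-fold.

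**Figure D5:**
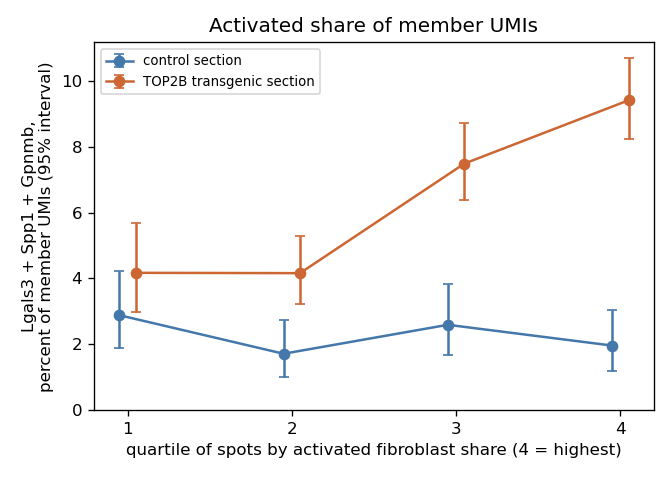
Percent of member UMIs that came from Lgals3, Spp1 and Gpnmb (95% intervals) in quartiles of spots by activated fibroblast share. The transgenic section goes from 4.17% to 9.41% and the control lies between 1.71% and 2.88%.

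The opposite order held for cardiomyocyte genes. In the transgenic quartile richest in them, the activated members had 0.183 times (0.126 to 0.260) the CPM of the poorest quartile, C1q 0.545 times (850 against 1473 UMIs) and Mrc1 0.599 times (0.478 to 0.748). In the control C1q had 0.784 times (0.707 to 0.868).

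Across the 921 transgenic spots with at least 1000 UMIs, which share 1 section and its depth, the genes most like the summed activated members in log UMIs per 10000 were Comp (Pearson r 0.37), Prelp (0.36), Mgp (0.36), Igfbp7 (0.34) and Ccn5 (0.34), among 7584 genes. Most of these encode proteins of the extracellular matrix. Those most like the summed identity members were Igfbp7 (0.56), Apoe (0.55), Cst3 (0.55), Sparc (0.55) and Ccn2 (0.54). In the spots poorest in red blood cell genes, Apoe (0.42), Tmsb4x (0.41), Col3a1 (0.39), Cd74 (0.39) and Col1a2 (0.38) came first. The identity sum had an r of −0.41 with the red blood cell genes over all spots. Its r with cardiomyocyte genes was 0.32 over all spots and −0.37 in the spots poorest in red blood cell genes, while the richest over the poorest cardiomyocyte quartile had 0.543 and 0.515 times the identity CPM in the same spots. Over all spots the sign thus depended on the measure. In the control the closest gene to the identity sum was Apoe at 0.27, and the closest to the activated sum was Wls at 0.13.

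Spots with Gpnmb also had more C1q and Lgals3. The 93 transgenic spots with a Gpnmb UMI had 1.17 times the C1q CPM of the 828 spots without (log2 0.22, 0.11 to 0.34) and 1.61 times the Lgals3 CPM (log2 0.69, 0.26 to 1.10), and Mrc1 was at 58.0 and 55.1 CPM (log2 0.08, −0.27 to 0.40). Comp, a matrix protein of the activated fibroblast list, had 2.18 times the CPM there. Comp was the gene most like the activated sum, which includes Gpnmb, across these same spots. Its value here follows partly from that and is not separate support. Other cell types moved too, with the activated fibroblast list at 1.43 times, fibroblast genes at 1.29 times, cardiomyocyte genes at 0.859 times and red blood cell genes at 0.497 times the CPM of the other spots, and their part in these values was not tested. Trem2 had 0.890 times the CPM (log2 −0.17, −0.88 to 0.47). Lgals3 was counted in 35 of the 93 Gpnmb spots, 37.6%, against 27.6% of all spots. The median depth was 15919 UMIs in Gpnmb spots and 14349 in the others.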

How the data were processed

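Visium CytAssist data of 1 control and 1 TOP2B transgenic heart section were used. Per the labels and the matrix header, the deposited values are counts of UMIs for every gene in every tissue-covered spot, made by the authors with Space Ranger 2.0.0 and not normalized. The submitters' processing notes name bcl2fastq and the builds GRCm39 and mm39, and the probe set was not given in the sources used here. Moran's I is a score per gene that the authors deposited, used as given. The authors' cluster labels and images were not used.

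UMIs were summed per section and expressed as CPM. Intervals were exact Poisson for levels, exact conditional binomial for ratios and Clopper-Pearson for shares, all at 95% and for counting error only. A 0 was set to a floor of 3 counts. Genes with at least 20 UMIs over both sections were tested against a fold of 2, and no p-value was computed, because 1 section per group gives no spread between animals. Edge spots had fewer than 6 tissue neighbors. Each section was split into 4 quadrants at its center. The members and gene lists were chosen with earlier results of these data known. Named genes were the 10 members, the highest and lowest gene of each list described, the 5 genes most alike the identity and activated sums in each section, Lyz1, the neighbors of the C1q genes, and genes said to be chosen later. Alternatives used edgeR 4.0.16 TMM factors and DESeq2 1.42.0 size factors in R 4.3.3, and other spots, weights and filters. The intervals were tested on simulated data. Python 3.11.15, numpy 2.4.6, scipy 1.17.1, pandas 2.3.3 and matplotlib 3.10.9 were used.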

Additional observations from a re-analysis of the deposited data

How the results depend on the processing

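The median log2 ratio of the members stayed between 0.76 and 1.03 under all 12 alternatives, and no member with an interval away from 0 changed its sign. Of 90 single-member values 79 stayed inside the interval given and 11 did not. The count of members at least 2-fold higher was 5, and it came to 3 with edgeR TMM factors, with DESeq2 size factors, with totals without the 50 most abundant genes and with the mean over spots (Lgals3, Spp1 and Gpnmb each time), to 3 with 1 CPM added, to 3 among members with at least 200 UMIs, to 3 among those with at least 20 UMIs in each section (added after seeing the data), and to 2 (Lgals3 and Gpnmb) in the 50% of spots richest in cardiomyocyte genes. The DESeq2 size factors came to 1 for both sections, so that setting compared UMIs without scaling. C1qa and Mrc1 lie so close to 2-fold that the scaling decides their call. In those cardiomyocyte-rich spots the log2 ratio of Lgals3 was 1.57 and the activated share of member UMIs in the transgenic section was 4.04%. That share was 7.67% in the spots poorest in red blood cell genes. Without Lgals3 it was 0.461% in the control and 1.89% in the transgenic section, since Lgals3 is most of the sum. The edge ratios stayed inside their intervals and the count of members with separate quadrants stayed at 7 under every alternative run. No paired analysis was possible because each group had 1 section. With 1 section per genotype, animal, plane of cut and genotype cannot be told apart. Spp1, Adgre1, Lyz2 and control Gpnmb are limited by low UMI counts, and the cause of these low counts was not tested.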
